A study of Mus musculus with 6 samples.

Results

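Homeobox and basic helix-loop-helix (bHLH) transcription factors were followed in mouse retinal cells that had been sorted for the surface protein Thy1 after optic nerve crush. The members are the genes whose names fall under a fixed set of homeobox prefixes (the family of Six3, Irx, Meis, Pbx, Onecut, Hox, Pou2, Pou3, Pou6, Prox1, Rax, Dlx, Zfhx, Zeb, Cux, Tgif, Barhl) and bHLH prefixes (Hes, Hey, Id, Neurod, Neurog, Ascl, Olig, Bhlhe, Nhlh and the E proteins Tcf3, Tcf4 and Tcf12), leaving out Neurod2 and Neurod4. They came to 53 of 15450 named genes, 34 of the homeobox and 19 of the bHLH class. Antisense transcripts that carry a factor's name (Prox1os, Zfhx2os, Zeb2os, Six3os1, Dlx1as) are counted with it, although they encode no factor.

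Mice entered the study at 3 to 4 weeks of age, and an adeno-associated virus in the eye carried Sox11 (AAV-Sox11, spelled AAV-So11 in the genotype label) or alkaline phosphatase PLAP (AAV-Control, genotype AAV-PLAP). The virus acted for 2 weeks, and both groups had an optic nerve crush followed by retina collection 3 days later, so every library comes from injured eyes. Each library pooled 3 retinas of 3 animals, with libraries A, B and C in each group, and p-values rest on the spread between these pools. Part of that spread, mainly among the AAV-Sox11 pools, is missing from the deposited values. The labels name no strain, viral serotype or promoter.

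Homeobox proteins bind DNA through a homeodomain, and many recognise the letters TAAT. Meis and Pbx proteins act largely as cofactors that sharpen the binding of other homeodomain proteins. bHLH proteins bind the E-box CANNTG as dimers, in which a broadly expressed E protein pairs with a factor of narrower expression. Id proteins lack the DNA-binding basic region and hold E proteins away from DNA. Hes and Hey proteins are repressors switched on by Notch signalling. In the retina the 2 classes share the work of specifying cell types: Six3, Six6 and Rax in the eye field, Prox1 in horizontal and AII amacrine cells, Neurod1 in photoreceptors and amacrine cells, Barhl2 in amacrine and ganglion cells.

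Prox1, Tcf4 and Zfhx2os fell and Zfhx3 rose with AAV-Sox11, by limma on log2(value + 1) with an adjusted p under 0.05 over all genes. The 1 rising member stands against a background of 0.796% of all genes called higher, and the 3 falling members against 1.52% called lower. Prox1 fell by 40.2% and Zfhx3 rose 1.64-fold. The deposited values lack spread in 1 direction in which the libraries can differ. With that direction as a covariate, limma called no gene. The adjusted p-values of Prox1, Tcf4, Zfhx2os and Zfhx3 were then 0.0591 to 0.0913. Promoter sequence of Prox1 and Zfhx3 is shown because SOX proteins bind ACAAAG or the near form ACAATG, and because members of both classes may bind TAAT or CANNTG. Each is the 250 bases before a RefSeq transcription start (GRCm38.p6), written 5′ to 3′ along the gene, with capitals marking any of these SOX or E-box letters on either strand. A match is a string of letters and says nothing of binding.
Prox1 (chr1:190170828-190171077, minus strand): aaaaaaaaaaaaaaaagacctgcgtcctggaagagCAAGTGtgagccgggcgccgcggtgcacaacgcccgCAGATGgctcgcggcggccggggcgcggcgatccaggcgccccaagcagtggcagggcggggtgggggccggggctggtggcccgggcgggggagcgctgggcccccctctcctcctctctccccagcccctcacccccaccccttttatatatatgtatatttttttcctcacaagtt
Zfhx3 (chr8:108714394-108714643, plus strand): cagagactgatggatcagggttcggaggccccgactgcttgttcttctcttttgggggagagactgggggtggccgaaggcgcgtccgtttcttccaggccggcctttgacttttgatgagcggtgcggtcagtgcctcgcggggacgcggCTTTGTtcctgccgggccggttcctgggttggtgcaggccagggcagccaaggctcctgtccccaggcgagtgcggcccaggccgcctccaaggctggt
The Prox1 window ends 113 bases before the start of the nearest deposited Prox1 transcript and holds 2 CANNTG matches. Its capitals include neither ACAAAG nor ACAATG. A second RefSeq start of Prox1 has 1 ACAAAG in its window (chr1:190169516-190169765, minus strand). The Zfhx3 window ends at the start of the deposited Zfhx3 transcript, inside the longer annotated gene, and holds 1 ACAAAG, read as CTTTGT on the strand shown. ACAAAG was found on either strand in 16.5% of 32851 such windows of all genes and in at least 1 window of 10 of the 36 members that had any to search. ACAATG was found in 10.7% of all windows and in 4 of the 36 members. CANNTG was in 66.2% of all windows and in 21 members, and TAAT in 54.9% and 18. A member can have several windows, so the shares and counts are on different bases.

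Prox1, the homeobox factor of horizontal and AII amacrine cells, had normalized values of 6358, 6476 and 7039 in AAV-Sox11 A, B and C, against 11695, 10448 and 11102 in AAV-Control A, B and C. The groups did not overlap. All 3 AAV-Sox11 pools lay close together, but the deposited values lack part of the spread within that group. Means were 6624 ± 364 with AAV-Sox11 and 11082 ± 624 in the controls (SD, n = 3 each), a log2 fold change of -0.74 ± 0.08 (SE) with a limma adjusted p of 0.0153. The gene lies at chr1:190118035-190170714 on the minus strand (mm10), and 1 protein-coding transcript of 5 exons and 7913 bases held 99.4% of its value. Its antisense partner Prox1os overlaps the gene by 419 bases and had 65.7, 59.2 and 67.4 with AAV-Sox11, against 103, 90.2 and 124 in AAV-Control. Prox1os was lower in every AAV-Sox11 pool than in every control (log2 fold change -0.71 ± 0.18), but missed the threshold (limma adjusted p = 0.0726).

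The only horizontal cell marker measured, Calb1, had 228, 267 and 321 with AAV-Sox11 and 433, 278 and 282 in AAV-Control, so the groups overlapped. The other 2 listed horizontal cell genes are not analysed here. The 7 measured genes of the bipolar list summed to 7158, 6793 and 6203 with AAV-Sox11, against 11006, 7552 and 7539 in AAV-Control, without overlap. Most of that sum is Prkca, which overlapped between the groups (5695, 5807 and 5237 with AAV-Sox11, 5726, 6413 and 5392 in AAV-Control). Taken singly, 6 of the 7 genes overlapped, Prkca among them, and Scgn lay apart (log2 fold change -1.67 ± 0.48, limma adjusted p = 0.0962). The median log2 fold change of the 7 was -0.79, against -0.06 for Prkca. Of the 7 measured amacrine genes, only Slc6a9 was called, and it was lower, beside 1.52% of all genes called lower. It had 209, 186 and 190 with AAV-Sox11 against 462, 285 and 392 in AAV-Control (log2 fold change -0.93 ± 0.18, limma adjusted p = 0.0481). The amacrine list had a median log2 fold change of 0.25. The part of these cell types in the Prox1 result was not tested. In bulk libraries, fewer cells of a type and less RNA per cell cannot be told apart.

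Zfhx3, a very large zinc finger homeobox factor of differentiating neurons, had 12888, 12491 and 13838 with AAV-Sox11, against 6987, 7437 and 9633 in AAV-Control. Every AAV-Sox11 pool lay above every control, and AAV-Control C was the nearest. Means were 13072 ± 692 with AAV-Sox11 and 8019 ± 1416 in AAV-Control (SD, n = 3 each), with a log2 fold change of 0.72 ± 0.13 and a limma adjusted p of 0.0391. All of the value sits on 1 protein-coding transcript of 10 exons and 16433 bases in a gene spanning chr8:107942644-108961630 on the plus strand. Zfhx3 missed the threshold without AAV-Control A (log2 fold change 0.63, adjusted p = 0.0813), without AAV-Control B (0.67, 0.0543) and with library size alone as the scaling (0.65, 0.0514), while the fold change stayed near its size with all libraries. It also missed with the direction that lacks spread as a covariate (0.72, 0.0913, or 0.0544 with the same-day letters too). The same held with an index of sex as a covariate (0.91, 0.134). Zfhx3 missed as well without any single AAV-Sox11 pool and without both libraries of any letter.

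The related genes of the zinc finger homeobox family went different ways. Zfhx2os, an antisense transcript of Zfhx2, had 607, 596 and 649 with AAV-Sox11, against 1124, 892 and 1023 in AAV-Control, a log2 fold change of -0.71 ± 0.11 (limma adjusted p = 0.0241). Zfhx2 itself had 1594, 1594 and 1433 with AAV-Sox11, against 1242, 1299 and 1160 in AAV-Control (log2 fold change 0.32 ± 0.08), and its adjusted p of 0.0818 did not pass. The antisense groups and the sense groups were each fully apart, in opposite directions. As a share of Zfhx2, Zfhx2os came to 38.1%, 37.4% and 45.3% in the AAV-Sox11 pools, against 90.5%, 68.7% and 88.2% in the controls. The 2 genes overlap by 15612 bases on chromosome 14, and no source used here gives the strand setting of the counting, so reads of one could be counted to the other.

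**Figure D1:**
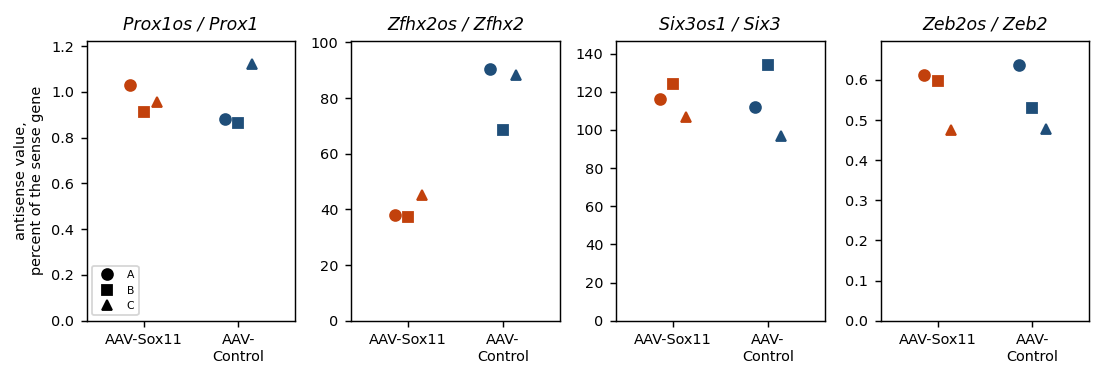
Antisense value as a percent of the sense gene's value (vertical axes, each from 0) in each library, with AAV-Sox11 left of AAV-Control; symbols give the library letter. The Zfhx2os share lay between 37.4% and 45.3% in the AAV-Sox11 pools and between 68.7% and 90.5% in the controls, while the groups overlapped for Prox1os, Six3os1 and Zeb2os.

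Relative to their sense genes, Prox1os, Six3os1 and Zeb2os had no such separation. Prox1os came to between 0.914% and 1.03% of Prox1 with AAV-Sox11 and between 0.863% and 1.12% in the controls. Six3os1, which overlaps Six3 by 4791 bases, came to 116%, 124% and 107% of Six3 with AAV-Sox11 and 112%, 134% and 97% in the controls. Six3 marks the eye field in the embryo, and its own values (910, 1002 and 1087 with AAV-Sox11, 1170, 940 and 919 in AAV-Control) overlapped too.

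Zfhx4, another zinc finger homeobox gene, was low and lay apart, at 59.4, 43.6 and 53.3 with AAV-Sox11 against 90.3, 65.7 and 152 in AAV-Control (log2 fold change -0.89 ± 0.31, limma adjusted p = 0.14). Zeb2, which directs interneuron and glial development in the mouse brain, had 2553, 2083 and 1902 with AAV-Sox11 and 2587, 2596 and 3220 in AAV-Control (log2 fold change -0.37 ± 0.14, adjusted p = 0.157). Neither passed the test, although every AAV-Sox11 value lay below every control value for both, by a narrow margin for Zeb2. With an index of sex as a covariate, the Zeb2 log2 fold change was -0.02 (limma adjusted p = 0.927). Zeb1 had means of 2165 ± 139 with AAV-Sox11 and 2073 ± 267 in AAV-Control (SD, n = 3 each), with overlapping groups.

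**Figure D2:**
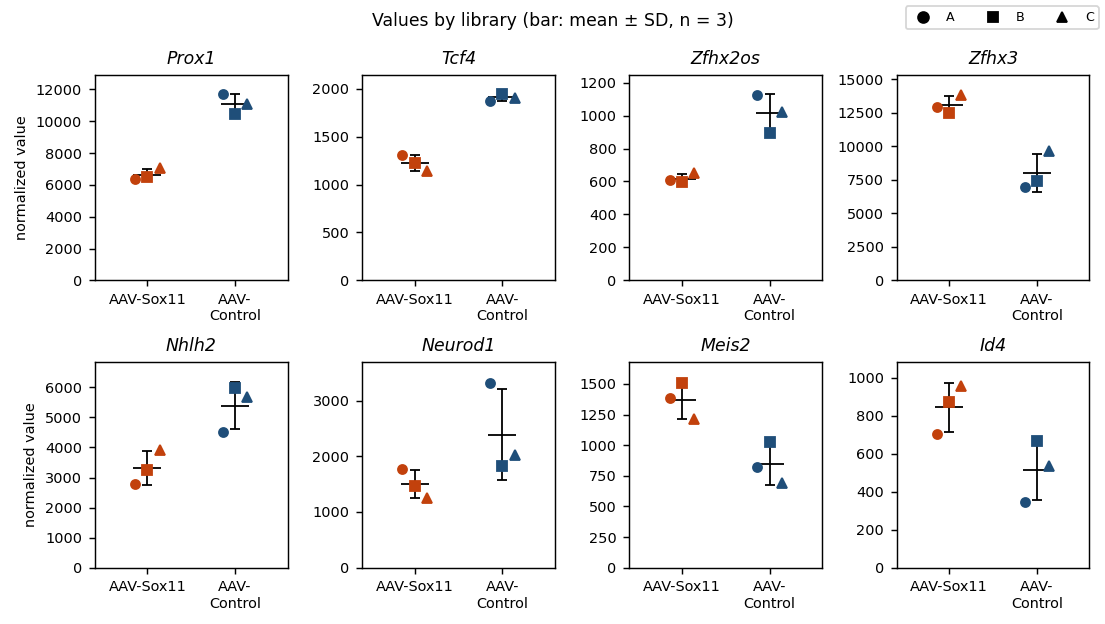
Normalized value (vertical axes, each from 0) of 8 members in each library, with AAV-Sox11 left of AAV-Control; symbols give the library letter and bars the mean ± SD of 3 libraries. Prox1, Tcf4 and Zfhx2os were lower and Zfhx3 higher in every AAV-Sox11 pool than in every control, and the groups of Nhlh2, Neurod1, Meis2 and Id4 were also apart but nearer to each other.

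Of the E proteins, the shared partners of other bHLH factors, Tcf4 fell. It had 1312, 1229 and 1141 with AAV-Sox11, against 1872, 1948 and 1907 in AAV-Control, with no overlap and little spread in either group. Part of the spread among the AAV-Sox11 pools is missing from the deposited values. Means were 1227 ± 85.1 with AAV-Sox11 and 1909 ± 38.4 in AAV-Control (SD, n = 3 each), a log2 fold change of -0.64 ± 0.08 with a limma adjusted p of 0.0169. Tcf12 had 1107, 964 and 866 with AAV-Sox11 against 1178, 1130 and 1222 in AAV-Control, again fully apart, but its adjusted p of 0.172 did not pass. Tcf3 was measured only on a processed transcript of 819 bases, so no protein-coding Tcf3 transcript is covered. That row had a level per kilobase of 37.4, against 345 for Tcf12 and 1100 for Tcf4 (means over 6 libraries). The Tcf12 and Tcf4 levels are summed over rows of several types, so the 3 levels are not alike. The Tcf3 row lay the other way, at 36.5, 36.3 and 32.2 with AAV-Sox11 against 30.1, 25.5 and 23.2 in AAV-Control (log2 fold change 0.41 ± 0.21, adjusted p = 0.270).

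Tcf4 lies at chr18:69343356-69689079 on the plus strand and was deposited as 11 transcript rows, more than any other member. A pair of rows annotated as retained introns near its 3′ end, which overlap each other, held 37.3% and 34.0% of the value. They had log2 fold changes of -0.64 ± 0.11 and -0.66 ± 0.11, with limma adjusted p-values of 0.0362 and 0.0330 over all rows. No protein-coding row of Tcf4 passed alone, and each of the 11 rows had a log2 fold change below 0. These rows share sequence, so how the authors' counting split reads among them is uncertain.

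Among bHLH factors of neurons, Nhlh2 was the most abundant per kilobase (1160, mean over 6 libraries). It had 2778, 3250 and 3905 with AAV-Sox11, against 4501, 5989 and 5672 in AAV-Control, without overlap. Its log2 fold change was -0.71 ± 0.15, and the limma adjusted p of 0.0576 missed the threshold, while it was 0.0285 with the same-day letters A, B and C as a block. Its paralog Nhlh1 was low, at 61.5, 85.2 and 74.4 with AAV-Sox11 and 79.6, 116 and 55 in AAV-Control, and overlapped. Neurod1, a factor of photoreceptors and amacrine cells, had 1764, 1468 and 1257 with AAV-Sox11 against 3317, 1825 and 2025 in AAV-Control. AAV-Control A stood far above the rest, and the log2 fold change of -0.64 ± 0.23 had an adjusted p of 0.149, or 0.0488 with the block. With the block and the direction that lacks spread, the limma adjusted p was 0.0671 for Neurod1 and 0.0459 for Nhlh2. Neurod1 lies wholly within the gene Cerkl on the same strand, so its reads could be counted to either.

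AAV-Control A was also the highest library in the summed markers of cones (1924, against 361 to 552 in the other 5 libraries), bipolar cells and Müller glia. The 6 rod genes summed to 41309, 33533 and 22448 with AAV-Sox11, against 57384, 44777 and 36121 in AAV-Control. The median log2 fold change was -0.59 for the rod list, -0.86 for the cone list and 0.10 for the Müller glia list. Several low members peaked in AAV-Control A. Bhlhe23, needed for rod bipolar cells, had 71.9, 43.6 and 30.2 with AAV-Sox11 against 200, 38.2 and 55 in AAV-Control. Irx5, a homeobox factor of some cone bipolar cells, had 26.1, 21.8 and 20.1 with AAV-Sox11 against 68.9, 25.5 and 28 in AAV-Control. Rax, the eye-field factor kept on in Müller glia and photoreceptors, had 86.5, 48.8 and 26.1 with AAV-Sox11 against 158, 63.7 and 69.5 in AAV-Control. The control values of all 3 genes spread widely, and their adjusted p-values were 0.502, 0.316 and 0.314. The part of these cell types in the values of Neurod1, Bhlhe23, Irx5 and Rax was not tested.

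**Figure D3:**
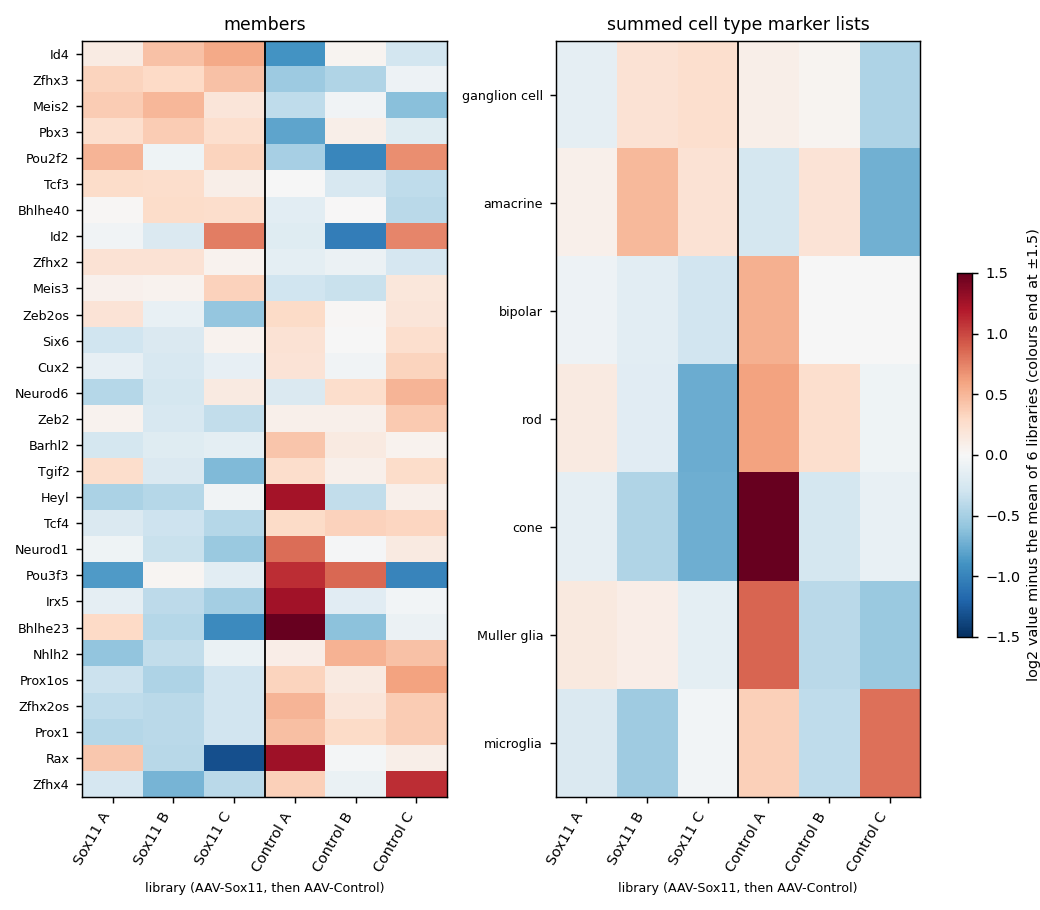
Log2 value of each member with a log2 fold change of at least 0.3 in size (left, 29 members sorted by fold change) and of each summed marker list with more than 1 gene (right), minus the mean over 6 libraries, with the AAV-Sox11 libraries left of the AAV-Control libraries. AAV-Control A was the darkest red column for Heyl, Irx5, Bhlhe23 and Rax and for the cone and Müller glia lists.

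Heyl, a Notch target of vessel wall cells, followed the same outline, at 56.3, 58.2 and 75.4 with AAV-Sox11 against 187, 60.8 and 83 in AAV-Control. Rgs5, a pericyte gene and the only one of 5 vessel markers measured, had 5922, 6137 and 5457 with AAV-Sox11 against 15449, 3265 and 2898 in AAV-Control. Both were highest in AAV-Control A. Hey1 and Hey2, also Notch-driven repressors, had means of 365.6 ± 36.8 and 161.9 ± 29.9 with AAV-Sox11, against 328.2 ± 52.6 and 180.3 ± 51.4 in AAV-Control (SD, n = 3 each), with overlapping groups. None of the 3 passed, with limma adjusted p-values from 0.351 to 0.768.

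Of 30 further genes of the Notch pathway, 27 were measured and 1 was called higher, beside 0.796% of all genes. Maml2, a coactivator of the Notch transcription complex, rose to 911.5 ± 82.5 with AAV-Sox11, against 423.3 ± 103 in AAV-Control (SD, n = 3 each), a log2 fold change of 1.13 ± 0.17 (limma adjusted p = 0.0253). None was called lower by limma, and 8 of the 27 (29.6%) had an unadjusted p under 0.05 in either direction, beside 24.3% of all genes. The ligand Jag2 had 310.6 ± 27.3 with AAV-Sox11 and 479.1 ± 59.4 in AAV-Control (log2 fold change -0.62 ± 0.12, adjusted p = 0.0527), and the ligand Dll1 had 50.42 ± 0.995 with AAV-Sox11 and 34.99 ± 0.831 in AAV-Control (0.51 ± 0.17, adjusted p = 0.130). The median log2 fold change of the 27 was -0.08, beside 0.03 over all genes.

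Id4 and Id2 inhibit E proteins. Id4 had 704, 874 and 956 with AAV-Sox11, against 348, 666 and 536 in AAV-Control, so even its lowest AAV-Sox11 pool lay above the highest control. The log2 fold change was 0.75 ± 0.24, the largest positive value of the 53, with a limma adjusted p of 0.117 and 0.0428 with the block. With the block and the direction that lacks spread, the limma adjusted p was 0.0613. Id2 had 234, 209 and 413 with AAV-Sox11 and 214, 119 and 404 in AAV-Control, and its C libraries were the highest in both groups. Its log2 fold change was 0.32 ± 0.45 (adjusted p = 0.690).

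The BMP-SMAD pathway drives Id genes in many tissues, and 18 of 23 of its listed genes were measured. Bmp6, a ligand, fell to 223.2 ± 5.71 with AAV-Sox11, against 385.2 ± 20.5 in AAV-Control (SD, n = 3 each), a log2 fold change of -0.78 ± 0.10 (limma adjusted p = 0.0172). Smad9, a signal transducer of the pathway, fell to 738.2 ± 27.2 with AAV-Sox11, against 1058 ± 112 in AAV-Control (-0.51 ± 0.10, adjusted p = 0.0481). These 2 of 18 stand beside 1.52% of all genes called lower. None was called higher by limma, and 7 of the 18 (38.9%) had an unadjusted p under 0.05 in either direction, beside 24.3% of all genes. The ligand Bmp7 had 1410 ± 143 with AAV-Sox11 and 1953 ± 256 in AAV-Control (-0.47 ± 0.12), with an adjusted p of 0.0802, or 0.0443 with the block. The list's median log2 fold change was -0.05.

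The Meis, Pbx and Tgif members, cofactors of other homeodomain proteins, lay mostly on the higher side. Of these 8 genes, 7 had a log2 fold change above 0, beside 53.8% of all genes, with a median of 0.24 beside 0.03 over all genes. None passed (limma adjusted p from 0.0584 to 0.972), and 3 had an unadjusted p under 0.05, beside 24.3% of all genes. Several of the 8, Meis2 and Tgif2 among them, were measured only on rows not annotated as protein coding. Meis2, found in GABAergic amacrine cells, had 1382, 1505 and 1210 with AAV-Sox11, against 818, 1025 and 688 in AAV-Control. Its groups were apart, and the log2 fold change of 0.71 ± 0.16 had an adjusted p of 0.0584, or 0.0285 with the block. With the block and the direction that lacks spread, the limma adjusted p was 0.0552. Pbx3 had 211, 230 and 210 with AAV-Sox11 against 102, 187 and 156 in AAV-Control (0.59 ± 0.22, adjusted p = 0.162). It lay wholly above the controls without passing. Tgif2, a repressor of the same superclass, was the exception below 0, at 93.8, 67.5 and 49.3 with AAV-Sox11 and 94.2, 82.4 and 94.6 in AAV-Control.

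The 7 measured amacrine genes summed to 26460, 35422 and 29297 with AAV-Sox11 and 20919, 29072 and 15314 in AAV-Control, with overlap between the groups and a median log2 fold change of 0.25. The 10 ganglion cell genes summed to 8966, 11474 and 11767 with AAV-Sox11 and 10478, 10141 and 7167 in AAV-Control, with a median of 0.68. In every library the rod and amacrine sums exceeded the sum for the ganglion cells named in the labels. The Müller glia sum lay below the ganglion cell sum in AAV-Sox11 C (11132) and AAV-Control B (9302). These lists differ in genes and size and are not scaled to transcript length, so the sums give no cell shares. The part of these cell types in the values of Meis2, Pbx3 and Id4 was not tested.

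At the level of single transcripts, the members came to 112 rows, 32 genes having 1 row and 21 having at least 2. In the same limma test over 26334 rows, 2 member rows were higher, against a background of 0.52%, and 4 were lower, against 1.46%. All but 1 belong to the 4 genes already named. The other is a short processed transcript of Meis2 (ENSMUST00000154671, 356 bases), with 52.1, 49.8 and 52.3 for AAV-Sox11 against 25.2, 18.6 and 23.2 for AAV-Control, and a log2 fold change of 1.18 ± 0.20 (adjusted p over rows 0.0357). It held 3.34% of the Meis2 value, while a retained-intron row held 82.3% and had 0.70 ± 0.18 (adjusted p over rows 0.0771).

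Rows of a gene did not always have fold changes of the same size or sign. The main protein-coding row of Pbx3 had 134, 155 and 129 with AAV-Sox11 against 56.3, 101 and 64.6 in AAV-Control (log2 fold change 0.94 ± 0.23). Its retained-intron row overlapped between groups, with a log2 fold change of -0.19 ± 0.28. Cux2, a homeobox factor of upper-layer cortical neurons, had a main row at -0.29 ± 0.11 and a processed transcript of 740 bases at -1.92 ± 0.39. That short row had 9.39, 7.28 and 12.1 with AAV-Sox11 against 32, 25.5 and 68.5 in AAV-Control, wholly apart, and its adjusted p over rows was 0.0503.

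**Figure D4:**
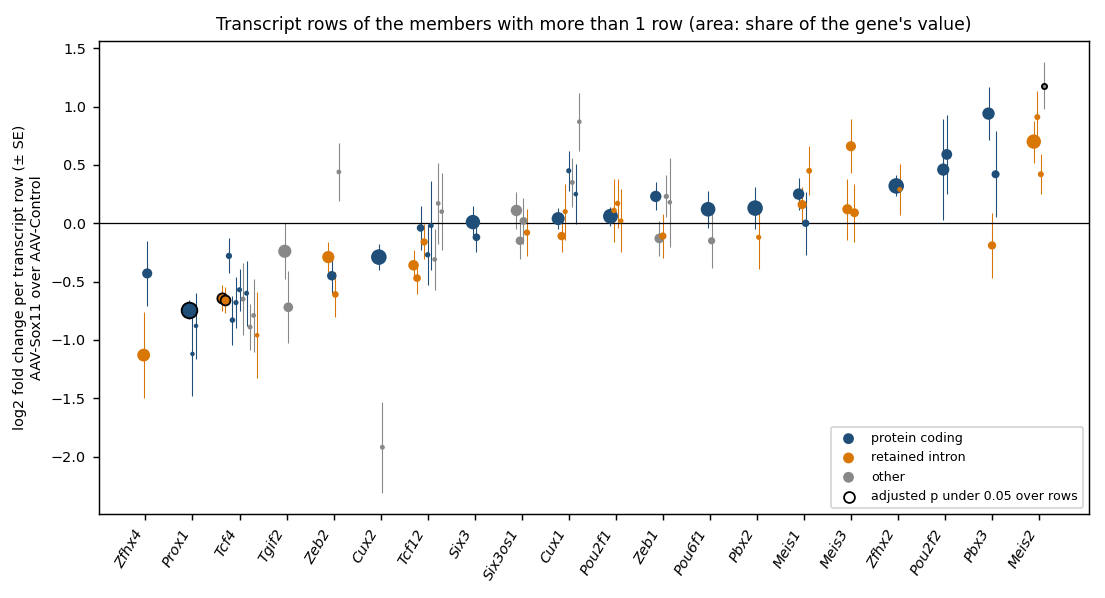
Log2 fold change of AAV-Sox11 over AAV-Control (vertical axis, bars ± SE) for each transcript row of 20 members with more than 1 row; the area of a point is the row's share of its gene's value. Rows of Prox1, Tcf4 and Meis2 with an adjusted p under 0.05 over all rows are outlined, and the short Cux2 row stands lowest at -1.92.

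In the authors' deposited table, which tests each row with another method, 6 member rows were higher at a false discovery rate under 0.05, against 1.95% of all rows, and 11 were lower, against 4.88%. These rows belong to 12 member genes. The authors' deposited table gave Prox1 a log2 fold change of -0.74 and a false discovery rate of 8.62e-06, and Zfhx3 0.70 and 0.000332. For the short Cux2 row the authors' deposited table gave -2.12 and 0.000271. These 3 false discovery rates are lower than the limma adjusted p-values of the same rows.

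The Pou factors Pou2f2 and Pou3f3 scattered as much within groups as between them, with log2 fold changes of 0.52 ± 0.40 and -0.66 ± 0.53 (limma adjusted p = 0.455 and 0.478). Barhl2, a homeobox factor of amacrine and ganglion cells, lay apart at 541, 572 and 589 with AAV-Sox11 against 865, 712 and 676 in AAV-Control (-0.40 ± 0.11, adjusted p = 0.0945). Six6, an eye-field factor, had 2110, 2227 and 2684 with AAV-Sox11 and 3023, 2591 and 3087 in AAV-Control (-0.31 ± 0.12, adjusted p = 0.156). Its highest AAV-Sox11 pool exceeded the lowest control.

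Bhlhe40, a repressor tied to the circadian clock, had a high level per kilobase of transcript (1480, mean over 6 libraries). It had 4615, 5498 and 5442 with AAV-Sox11 against 4087, 4563 and 3449 in AAV-Control, apart by a narrow margin (0.37 ± 0.12, adjusted p = 0.130). With an index of sex as a covariate, the Bhlhe40 log2 fold change was 0.08 (limma adjusted p = 0.698). Its paralog Bhlhe41 had 3537, 3234 and 3682 with AAV-Sox11 and 3802, 3227 and 4604 in AAV-Control, with overlap. Bhlhe22, a factor of amacrine and some bipolar cells, had 662, 809 and 1161 with AAV-Sox11 and 650, 846 and 1003 in AAV-Control. In both groups library A was the lowest and library C the highest. Neurod6, of an amacrine subtype, had 43.8, 48.8 and 64.4 with AAV-Sox11 and 50.5, 70.6 and 83.9 in AAV-Control, with overlap (-0.37 ± 0.25, adjusted p = 0.397). The remaining low factors Neurog2 and Onecut1 had means of 37.33 ± 3.38 and 14.72 ± 2.29 with AAV-Sox11, against 39.82 ± 15.8 and 16.85 ± 0.559 in AAV-Control (SD, n = 3 each).

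**Figure D5:**
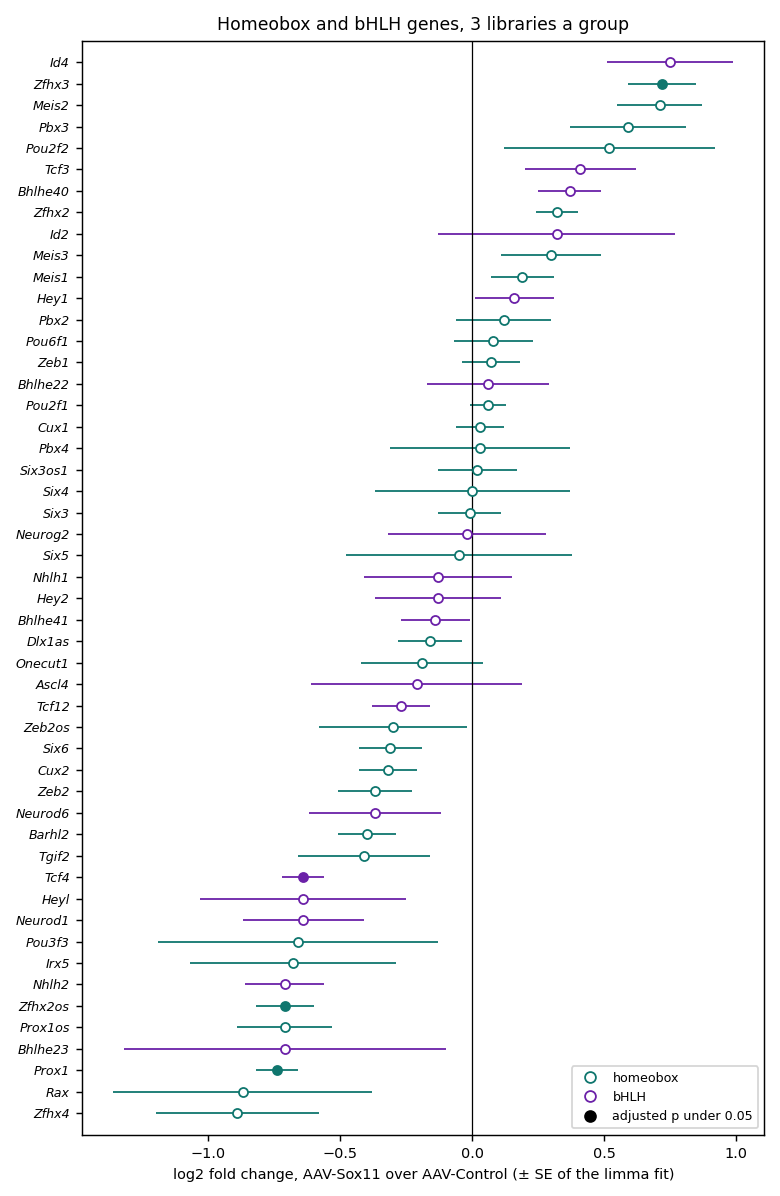
Log2 fold change of AAV-Sox11 over AAV-Control (horizontal axis, bars ± SE of the limma fit, 3 libraries a group) for 50 of the 53 members, homeobox in green and bHLH in purple, with filled points for an adjusted p under 0.05. Values run from -0.89 for Zfhx4 to 0.75 for Id4, and the 4 filled points (Prox1, Zfhx2os, Tcf4, Zfhx3) have short error bars.

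Across the 53 members, 24 had a log2 fold change above 0 and 29 below, and the median was -0.05, beside 0.03 over all genes. The groups did not overlap for 8 members that were higher with AAV-Sox11, against 16.2% of all genes, and for 12 that were lower, against 14.4%. Of the members, 21 had a log2 fold change under 0.3 in size, from -0.27 to 0.19. The plot of fold changes by member shows this middle stretch, which holds Cux1, Zeb1, Pou2f1, Hey1 and Six4. With the block, 8 members passed, against 4.77% of all genes. These were the 4 named first and Meis2, Id4, Nhlh2 and Neurod1. With the block and the direction that lacks spread in the deposited values, only Prox1 and Nhlh2 passed, among 132 of 15450 genes.

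The calls rest on every AAV-Sox11 pool. Without AAV-Sox11 A, B or C, limma called 0 of all genes, and 20, 11 and 12 members had an unadjusted p under 0.05, against 19 with all 6 libraries. Over all genes these shares were 20.2%, 12.6% and 19.1%, against 24.3% with all 6 libraries. Without AAV-Control A, limma called 138 of 15450 genes, with Prox1 and Tcf4 as the members among them. Without AAV-Control B it called 745, with Meis2, Prox1, Tcf4 and Zfhx2os among them. Without AAV-Control C it called 395, with the 4 members named first. With all 6 libraries it called 358. With the direction that lacks spread in the deposited values as a covariate, limma also called 0 genes, 18 members and 16.7% of all genes had an unadjusted p under 0.05, and the 4 genes had adjusted p-values of 0.0591 to 0.0913. An index of sex (log2 of Xist minus that of 4 Y genes) was 6.86, 8.11 and 8.45 in the AAV-Sox11 pools, against 6.82, 6.79 and 5.26 in AAV-Control. With this index as a covariate, limma called 0 genes, and 9 members and 17.5% of all genes had an unadjusted p under 0.05. Prox1, Tcf4, Zfhx2os and Zfhx3 then had log2 fold changes of -0.79, -0.56, -0.72 and 0.91, and adjusted p-values of 0.119 to 0.148. Sox11 itself had 179, 234 and 284 with AAV-Sox11 against 131, 111 and 100 in AAV-Control, wholly apart, a 2-fold difference with an adjusted p of 0.0504.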

How the data were processed

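RNA of sorted Thy1-positive cells was profiled in 3 AAV-Sox11 and 3 AAV-Control libraries. Tools named in the submitters' processing notes are CASAVA 1.8.2 and edgeR (no version), with build mm10. No source used here gives the aligner, counter or strand setting. The authors deposited 26691 Ensembl transcript rows; 357 rows without a gene name (0.422% to 0.517% of a library) were left out of all tests. The authors deposited whole-number columns, taken here as a score, summing to between 10747985 and 11546892 per library. The authors also deposited normalized values, a signal equal to the whole numbers times 1 factor per library (0.9649 to 1.043). The authors' deposited log2 fold changes and false discovery rates (adjusted p-values) per row are quoted only as theirs.

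Of the 5 directions in which 6 libraries can differ, 1 had no spread beyond rounding (SD 9.48e-05, the next 0.0871, natural log units), and AAV-Sox11 B carried 57.7% of its squared weight. AAV-Sox11 A carried 18.4% and AAV-Sox11 C 12.5%, against 6.37% or less in each control. Mainly the spread among the AAV-Sox11 pools is therefore understated. The values had therefore been adjusted before deposit, so count tests were not used and the totals stand for depth only approximately. Replicate spread along that direction is missing from every SD and p-value. P-values of fits without that direction as a covariate can be too small.

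Normalized values were summed per gene name to 15450 genes and tested with limma 3.58.1 (R 4.3.3; lmFit, eBayes with trend) on log2(value + 1), with Benjamini-Hochberg adjustment over all genes and a threshold of 0.05. No gene was filtered out; the lowest mean value of a gene was 7.2. The log2(value + 1) scale understates changes of low genes. Levels compared between genes are per kilobase of GENCODE vM21 transcript, summed over rows; positions are from that annotation (GRCm38, the build of mm10). Annotation was found for 111 of 112 member rows. The fit was tested on simulated data.

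The series description states that both groups of a letter were prepared on the same day, so the letters pair the libraries. Deviations from the group means correlated at 0.002, 0.793 and 0.236 for A, B and C. Between unlike letters the correlations ran from -0.876 to 0.198. The highest of these, of AAV-Sox11 A with AAV-Control C, exceeded that of the A pair. The main test had no block, and 21 alternatives were run. The fit per transcript row was added after the data were seen. Members, gene lists and tests were chosen with earlier results of these data known. Genes are named if they passed, were among the 10 largest changes in either direction, led their family in level, stood on a list of factors with roles in the retina, or belonged to the pathway and marker lists. Zfhx2, Zeb1, Zeb2os, Six3os1, Six4, Cux2, Nhlh1, Hey2 and Tgif2 fall outside these criteria and were chosen after their values were seen. Values of 3 members are not reported here, although the counts include them.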

Additional observations from a re-analysis of the deposited data

How the results depend on the processing

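With the paired fit (replicate block), 3 members were higher and 5 lower, in place of 1 and 3. The members gained were Meis2, Id4, Nhlh2 and Neurod1, and the block changed no other member's call. With the direction without spread as a covariate, limma called 0 higher and 0 lower (7 and 11 members at an unadjusted p under 0.05). With that direction and the block, it called 0 higher and 2 lower (8 and 12 unadjusted). With the sex index it called 0 and 0 (3 and 6 unadjusted), and with library size alone 0 higher (6 unadjusted) and 4 lower. Dropping a whole letter (A, B or C) gave 0 higher and 0 lower each time (unadjusted 6, 7 and 4 higher and 9, 9 and 8 lower). Over all genes, an unadjusted p under 0.05 was found in 13.1% to 23.2% in the fits whose unadjusted counts are given. Of 15450 genes, limma called 358 in the main fit and 737 with the block. It called 132 with the block and the direction, and 459 with library size alone. Dropping a whole letter left 0 to 1 of all genes called. Leaving out 1 library gave 0 to 1 members higher and 0 to 3 lower, with 0 to 745 of all genes called. The cause of these moves was not tested, except that leaving out libraries also lowers the number of samples.

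Prox1 kept its direction in all alternatives (log2 fold change -0.81 to -0.67, adjusted p 0.00775 to 0.124), as did Tcf4 (adjusted p 0.0142 to 0.176), Zfhx2os (0.0167 to 0.164) and Zfhx3 (0.0263 to 0.204). Among the 29 members reported singly with a log2 fold change of at least 0.3 in size, the direction turned for Id2 on leaving out 1 library (-0.11 to 0.77), and for Tgif2 with the sex index (0.02). Of the 21 members under that size, 17 turned in at least 1 alternative. The 3 libraries a group and the adjusted values limit precision.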

Other observations

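Further homeobox factors of photoreceptors and bipolar cells, outside the set described above, also peaked in AAV-Control A. Otx2, which specifies photoreceptors, had 229, 207 and 207 with AAV-Sox11, against 744, 254 and 310 in AAV-Control. Lhx4, found in bipolar cells and cones, had 226, 157 and 200 with AAV-Sox11, against 1419, 268 and 703 in AAV-Control. Its log2 fold change was -1.74 ± 0.53, with a limma adjusted p of 0.109, or 0.0458 with the same-day block. Crx, of photoreceptors, had 48, 41.5 and 26.1 with AAV-Sox11, against 86.4, 71.6 and 46.3 in AAV-Control.

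Other listed factors of inner retinal neurons went different ways. Lhx9 rose to 96.7 ± 16.2 with AAV-Sox11, against 33.76 ± 12 in AAV-Control (SD, n = 3 each; adjusted p = 0.0465). Pou4f2, which marks ganglion cells, had 45.9, 67.5 and 62.3 with AAV-Sox11, against 14.6, 34.3 and 16.4 in AAV-Control (1.47 ± 0.35, adjusted p = 0.0669, or 0.0383 with the block). Pax6, of amacrine and ganglion cells, fell to 2225 ± 80.2 with AAV-Sox11, against 3372 ± 292 in AAV-Control (adjusted p = 0.0220). Isl1, of ganglion and bipolar cells, had 144, 152 and 162 with AAV-Sox11 and 312, 108 and 115 in AAV-Control, with overlap. Lhx9 and Pax6 were the only limma calls without the block among the 18 of 23 listed factors that were measured. These are 1 higher, beside 0.796% of all genes, and 1 lower, beside 1.52%. An unadjusted p under 0.05 in either direction was found for 9 of the 18 (50%), beside 24.3% of all genes. The list's median log2 fold change was -0.12.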
